A study of Mus musculus with 6 samples.

Results

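Globin and erythroid genes were followed in pre-B cells, an immature stage of the B lineage, that were sorted from mouse embryos at E17.5. The members were taken by their names in the probe table, where they are spelled HBA-A1, HBB-B1, HBB-B2, HBA-X, HBB-Y, HBB-BH1, ALAS2, EPOR and KLF1, without regard to their values: the adult globins Hba-a1, Hbb-b1 and Hbb-b2, the embryonic globins Hba-x, Hbb-y and Hbb-bh1, and the red cell genes Alas2, Epor and Klf1. They are 9 of the 30774 gene names on the array and are read by 21 of its 45281 probes. Of these probes, 15 were tested, because they were detected on at least 3 of the 6 arrays. They represent 6 genes, and Hba-x, Hbb-y and Hbb-bh1 had no tested probe. The Smchd1 null group (3 arrays) was homozygous for a gene trap allele of Smchd1, which encodes a non-canonical SMC protein of the inactive X chromosome. The wildtype group (3 arrays) had intact Smchd1. Both groups carried the Eµ-Myc transgene, in which Myc is placed under an immunoglobulin heavy chain enhancer active in B lineage cells, and the strain was C57BL/6. The organ and the sorting gate are not stated in the labels. Nor do they tell whether replicates came from different embryos, and the p-values therefore reflect only how much these 6 samples vary, which may be technical.

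Red cells carry oxygen on haemoglobin, a tetramer of alpha-type and beta-type globin chains that each hold a haem group. In the mouse the first, primitive red cells arise in the yolk sac and make embryonic globins (Hba-x, Hbb-y, Hbb-bh1), and the definitive red cells that mature in the fetal liver make the adult globins. Alas2 catalyses the first step of haem synthesis in red cell precursors, Epor is the receptor through which erythropoietin keeps them alive, and Klf1 is a transcription factor that binds CACCC boxes in globin promoters. B cells do not use globins for a known function.

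The arrays behaved as their labels state for the targeted gene. The brightest Smchd1 probe had normalized log2 levels of 4.64, 5.03 and 4.96 in null replicates 1, 2 and 3, none of them detected, against 9.50, 9.65 and 9.67 in wildtype. The B lineage gene Cd79b, a chain of the B cell receptor, was detected on all 6 arrays and had raw intensities of 7746.6, 10367.5 and 11059.5 in null, against 8859.3, 11833.5 and 8780.6 in wildtype. Smchd1 null replicate 3 stands apart: across tested probes, Pearson r was 0.946 to 0.956 for pairs that include it and 0.984 to 0.994 for the rest. Between 15309 and 16447 probes were detected per array.

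The adult beta globin names need a caution. The probe table uses Hbb-b1 and Hbb-b2, the names of one haplotype, whereas RefSeq on the C57BL/6J assembly GRCm38.p6 places the adult genes Hbb-bs and Hbb-bt beside Hbb-y and Hbb-bh1 on chromosome 7. Probe sequences were not used here, so the Hbb-b1 and Hbb-b2 probes are uncertain among these near-identical genes, and the Hba-a1 probe is uncertain between Hba-a1 and Hba-a2 on chromosome 11. The RefSeq promoter windows of Hba-a1 and Hba-a2 (GRCm38.p6, 300 bases each) share an identical run of 297 bases. The longest run shared by Hbb-bs and Hbb-bt is 14 bases, by Hbb-bs and Hbb-y 12 bases, and by Hba-a1 and Hba-x 10 bases.

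The stretch of 130 bases before the start site is given for 2 adult and 2 embryonic globin genes, because the adult and embryonic probes differed in which arrays they were bright on. All are from RefSeq, build GRCm38.p6, written 5′ to 3′ on the strand of the gene, and capitals mark matches on either strand to the CACCC box, which Klf1 is known to bind, to the CCAAT box, to GATAA as a site of GATA factors, or to TATAA as a core of the TATA box. The windows are chr11:32283542-32283671 (plus strand) for Hba-a1, chr7:103827929-103828058 (minus strand) for Hbb-bs, chr11:32276470-32276599 (plus strand) for Hba-x and chr7:103853208-103853337 (minus strand) for Hbb-y.
Hba-a1: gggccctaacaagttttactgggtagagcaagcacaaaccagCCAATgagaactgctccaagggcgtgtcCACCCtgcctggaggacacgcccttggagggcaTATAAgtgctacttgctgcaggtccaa
Hbb-bs: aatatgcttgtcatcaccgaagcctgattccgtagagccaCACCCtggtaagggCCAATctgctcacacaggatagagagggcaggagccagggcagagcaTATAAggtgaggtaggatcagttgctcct
Hba-x: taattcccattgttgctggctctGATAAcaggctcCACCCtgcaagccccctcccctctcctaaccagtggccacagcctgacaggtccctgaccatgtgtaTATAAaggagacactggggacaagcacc
Hbb-y: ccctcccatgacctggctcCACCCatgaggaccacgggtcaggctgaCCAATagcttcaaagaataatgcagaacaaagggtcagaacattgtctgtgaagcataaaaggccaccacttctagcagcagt

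Each of the 4 windows holds CACCC, with its first base at position -60 from the start site in Hba-a1, -90 in Hbb-bs, -95 in Hba-x and -111 in Hbb-y. CCAAT begins at -88 in Hba-a1, -76 in Hbb-bs and -83 in Hbb-y, and these letters are not in the Hba-x window. TATAA begins at -27 in Hba-a1, -29 in Hbb-bs and -28 in Hba-x, and is not in the Hbb-y window. GATAA begins at -107 in Hba-x and is in none of the other windows shown. No 2 of these matches overlap. Such short words are common: in the 250 bases before the start site, 52% of 32851 RefSeq promoters hold CACCC, 33.8% hold CCAAT, 22.6% hold GATAA and 22.8% hold TATAA. Those shares are for a longer stretch than the 130 bases shown. The matches describe the letters and show no binding.

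Adult globin transcripts were abundant in every sorted sample and varied several-fold among the Smchd1 null arrays. Hba-a1, the adult alpha chain, had raw mean bead intensities of 4614.8, 20577.7 and 21019.5 in Smchd1 null replicates 1, 2 and 3, against 14136, 10406.8 and 10539.3 in wildtype replicates 1, 2 and 3. The null samples thus lay on both sides of all wildtype samples, with replicate 1 below them and replicates 2 and 3 above them. On the normalized log2 scale Hba-a1 averaged 13.73 ± 1.17 in null and 13.33 ± 0.48 in wildtype (SD, n = 3 each), a log2 fold change of 0.40 with a 95% interval of -0.91 to 1.70 (limma adjusted p = 0.936).

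Hbb-b1, the adult beta chain, likewise had its lowest and its highest array in null. Its brightest probe read 8141.8, 25113.8 and 30067.5 in null, against 21819.8, 17965.5 and 16502.5 in wildtype. On null replicate 3 this was the second brightest of all probes, at rank 2, where the highest intensity was 30835, whereas it ranked 273 on null replicate 1. Compression of signal near the top of the scale was not tested. The normalized log2 levels of this probe averaged 14.24 ± 0.88 in null and 14.08 ± 0.36 in wildtype (SD, n = 3 each), a log2 fold change of 0.15 (95% interval -0.84 to 1.15, limma adjusted p = 0.959).

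The 10 detected Hbb-b1 probes and the Hba-a1 probe moved almost as one. Over the 6 arrays their pairwise Pearson r lay between 0.974 and 0.999, with a median of 0.991; these probes share the arrays and in part the target. For all 11 of these probes null replicate 3 was the highest array and null replicate 1 the lowest, by 3.54-fold to 6.42-fold in raw intensity. The widest ratio belonged to Hbb-b1 probe 9, which read 1284.2, 6071.7 and 8249 in null, against 4969.7, 3853.1 and 2766.1 in wildtype. The standard error from the beads of a probe was 2.06% to 5.96% of its intensity, well under these differences between arrays. The eleventh Hbb-b1 probe was not detected on any array (143 to 156.2 in null, against 153.9 to 181.7 in wildtype), so the probes of this name disagree.

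**Figure D1:**
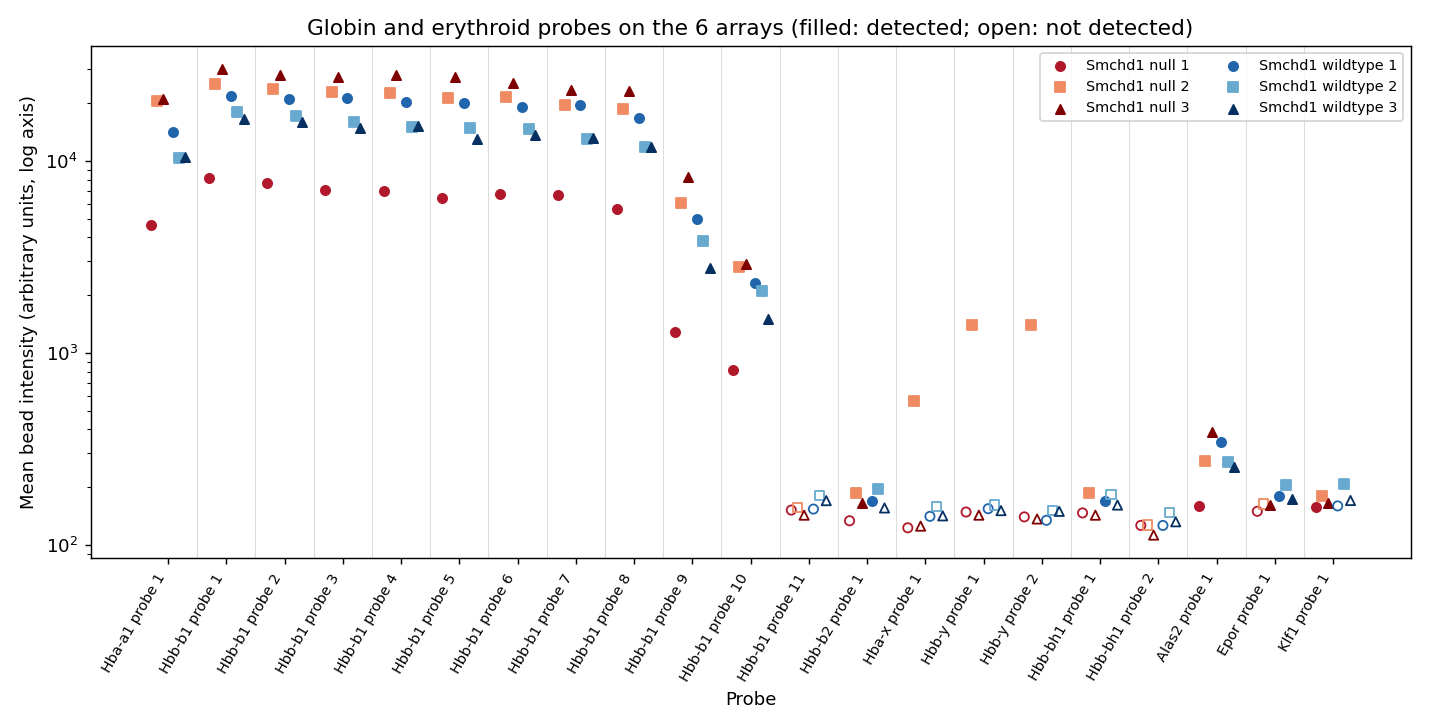
Raw mean bead intensity (arbitrary units, log axis) of the 21 globin and erythroid probes, with the 3 Smchd1 null arrays left of the 3 wildtype arrays for each probe; filled points were detected and open points were not. The Hba-a1 probe and Hbb-b1 probes 1 to 10 are bright on all arrays and lowest on null replicate 1, whereas Hbb-b2 and Hbb-b1 probe 11 are near background, and the Hbb-y and Hba-x probes rise above the rest on null replicate 2 only.

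Relative to the mean of the wildtype arrays, the median log2 level over these 11 probes was -0.87, 0.53 and 0.97 in null replicates 1, 2 and 3, and 0.52, -0.34 and -0.13 in wildtype replicates 1, 2 and 3. Their pooled SD within genotype was larger than that of 96.3% to 99.3% of all tested probes. The groups overlapped for each of the 11 probes. All 11 log2 fold changes were above 0, between 0.14 and 0.40, with a median of 0.22, beside a median of -0.02 over all 15878 tested probes, and none passed the threshold (adjusted p 0.936 to 0.966). The direction rests on single arrays: without null replicate 3 all 11 were below 0, with a median of -0.16, and without null replicate 1 the median was 0.75. Since these are bulk samples, fewer red cells and less globin RNA per cell cannot be told apart.

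Hbb-b2, the second adult beta chain, was close to background. Its 1 probe read 133.7, 187.2 and 165.7 in null, against 168.5, 194.9 and 155.9 in wildtype, and was detected on 2 arrays of each genotype. The fold change was 0.17 on the log2 scale (95% interval -0.65 to 0.99, limma adjusted p = 0.951), and the groups overlapped.

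The embryonic globins Hbb-y and Hba-x were detected on 1 array only. The 2 Hbb-y probes, for the embryonic epsilon-type chain, read 1403.7 and 1405.5 in Smchd1 null replicate 2. In the other null samples they read 148.5 and 140.1 (replicate 1) and 143 and 136.6 (replicate 3), against 134.5 to 161.4 in wildtype, and none of these values was detected. Hba-x, the embryonic zeta-type alpha chain, followed the same pattern, with 122.9, 559.8 and 125.4 in null replicates 1, 2 and 3, against 141, 158.1 and 141.8 in wildtype.

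The 3 probes agree within null replicate 2 and rest on many beads there. The Hbb-y values come from 55 and 52 beads with standard errors of 47.3 and 39.7 intensity units, and the Hba-x value comes from 30 beads with a standard error of 35.8. On the normalized log2 scale Hbb-y stood at 10.35 and 10.36 and Hba-x at 8.78, where detection began at 5.11. Against the lowest detected signal, or the probe's own where higher, averaged over the other 5 arrays, Hbb-y was at least 37.7-fold and at least 37.8-fold higher by its 2 probes, and Hba-x at least 12.6-fold higher. These bounds compare 1 sample with 5 and have no replicate.

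As group means the bounds were at least 2.91-fold and 2.66-fold higher in null than in wildtype for the Hbb-y probes and at least 1.67-fold higher for Hba-x, and they rest on null replicate 2 alone. Without the detection filter the 3 probes could be fitted, and none passed, with limma adjusted p of 0.973 each and log2 fold changes of 2.04 and 2.08 for Hbb-y (SE 1.43 and 1.49) and 1.38 for Hba-x (SE 1.14).

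Hbb-bh1, the third embryonic gene, was near background throughout. Its first probe read 146.9, 187.6 and 143 in null, against 170, 182.5 and 161.4 in wildtype, and was detected on null replicate 2 and wildtype replicate 1. Its second probe was detected on no array, at 112.6 to 127.2 in null, against 126.4 to 147.6 in wildtype. On null replicate 2, its highest array, the first Hbb-bh1 probe was at least 1.54-fold above the average of the other 5 arrays by the same bound. This is a smaller bound than those of Hbb-y and Hba-x, and it does not hold against each array. The log2 level was 5.77 on null replicate 2 and 5.31 on wildtype replicate 1.

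Hbb-y and Hba-x differed from Hba-a1 and Hbb-b1 in the arrays on which they were high. Null replicate 3 had the highest levels of the 11 Hba-a1 and Hbb-b1 probes and no detected Hbb-y or Hba-x. Null replicate 2 was the next highest by raw intensity for these probes, apart from Hbb-b1 probe 7, and was the only array with Hbb-y and Hba-x. A search chosen after these values were seen took all probes detected on 1 array only (detection p under 0.01 there) with more than 2 times the intensity of any other array. On null replicate 2 this gave 3 probes, the 2 of Hbb-y and the 1 of Hba-x. It gave 9 probes on null replicate 3, led by Fxyd6, and 0 on each of the other 4 arrays.

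**Figure D2:**
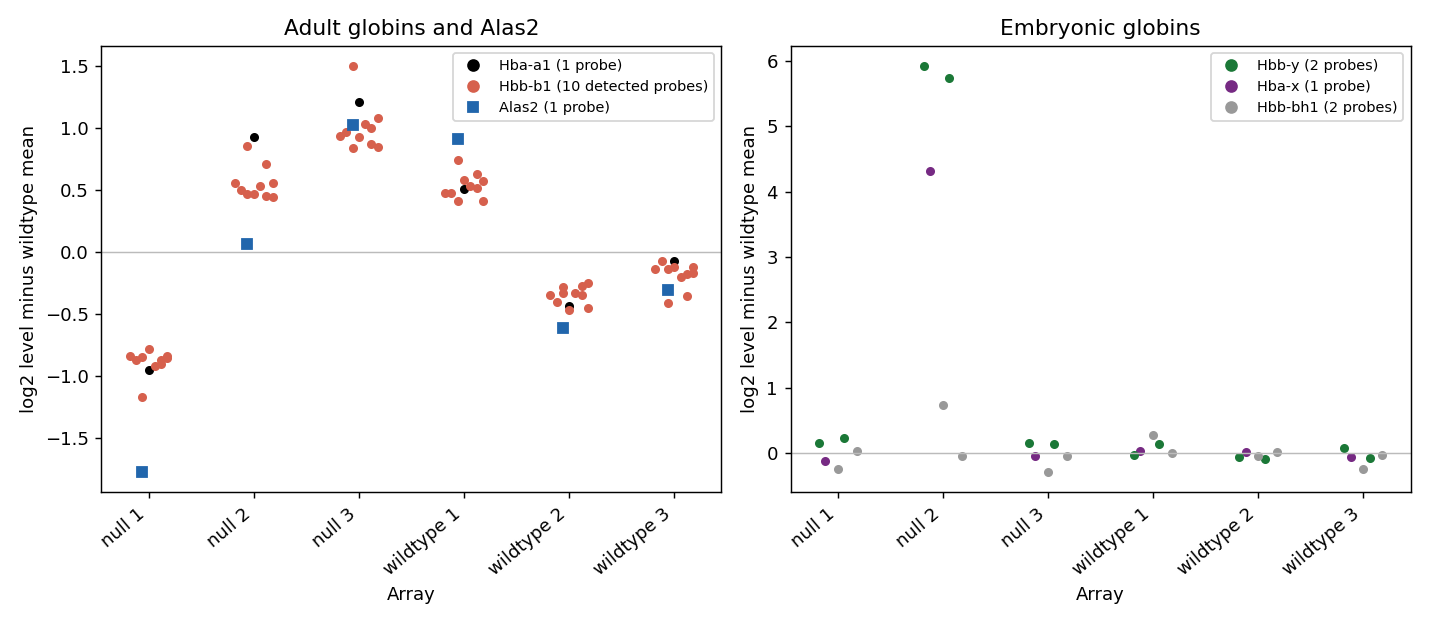
Normalized log2 level minus the wildtype mean on each of the 6 arrays for the adult globin probes and Alas2 (left) and the embryonic globin probes (right), with different vertical scales. The 11 Hba-a1 and Hbb-b1 probes are lowest on null replicate 1 and highest on null replicate 3, and Hbb-y and Hba-x stand out on null replicate 2.

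Alas2, the erythroid enzyme that commits glycine and succinyl-CoA to haem, tracked the adult globins. It read 159.9, 274.1 and 389.5 in null, against 345.4, 269.6 and 253.4 in wildtype, and was detected on all 6 arrays. As for the adult globins, null replicate 1 was the lowest array and null replicate 3 the highest. Its log2 level correlated at r = 0.940 over the 6 arrays with the mean of the 12 detected adult globin probes, a higher r than 99.7% of the 10904 tested genes had, given as a description. The log2 level averaged 6.87 ± 1.42 in null and 7.09 ± 0.80 in wildtype (SD, n = 3 each), a log2 fold change of -0.23 (95% interval -1.89 to 1.44, limma adjusted p = 0.964).

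Epor and Klf1 were barely above background on any array. Epor read 149.8, 163.5 and 162.3 in null, against 180.5, 204.3 and 174.3 in wildtype, and was detected on 1 null array and on 3 wildtype arrays. Although every raw null value lay below every wildtype value, the normalized log2 values overlapped, at 4.89, 4.95 and 5.35 in null and 5.74, 5.48 and 5.20 in wildtype. The log2 fold change was -0.41 (95% interval -0.88 to 0.06, limma adjusted p = 0.934). Klf1 read 157.8, 178.9 and 164.7 in null, against 159.8, 206.7 and 170.5 in wildtype, and was detected on 3 null arrays and 1 wildtype array. Its log2 fold change was 0.22 (95% interval -0.24 to 0.68, limma adjusted p = 0.934). Neither followed the adult globin mean as Alas2 did, at r = 0.359 for Epor and 0.104 for Klf1, where values near background limit any correlation.

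Between null and wildtype, 0 of the 15 tested probes passed the limma threshold of an adjusted p under 0.05, beside 0.0567% of all tested probes (0.0126% higher and 0.0441% lower in null). An unadjusted p under 0.05 was reached by 0 of the 15, beside 4.04% (2.12% lower in null). By normalized log2 level 0 of the 15 had groups that did not overlap, beside 9.61% (5.09% lower in null). The 95% intervals of the 11 Hba-a1 and Hbb-b1 probes reached as low as -1.17 and as high as 1.97 on the log2 scale, so these arrays do not show that adult globin levels are alike in the 2 genotypes.

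**Figure D3:**
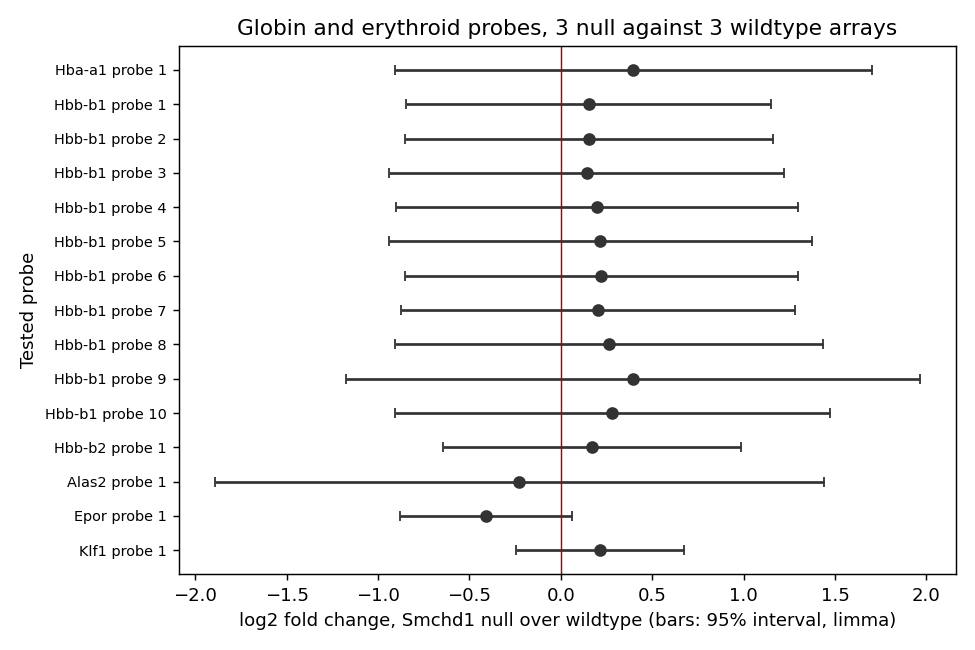
Log2 fold change (Smchd1 null over wildtype) of each of the 15 tested probes from limma, 3 arrays against 3, with bars for the 95% interval. Every interval includes 0, and those of Hba-a1, Hbb-b1 and Alas2 are the widest.

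**Figure D4:**
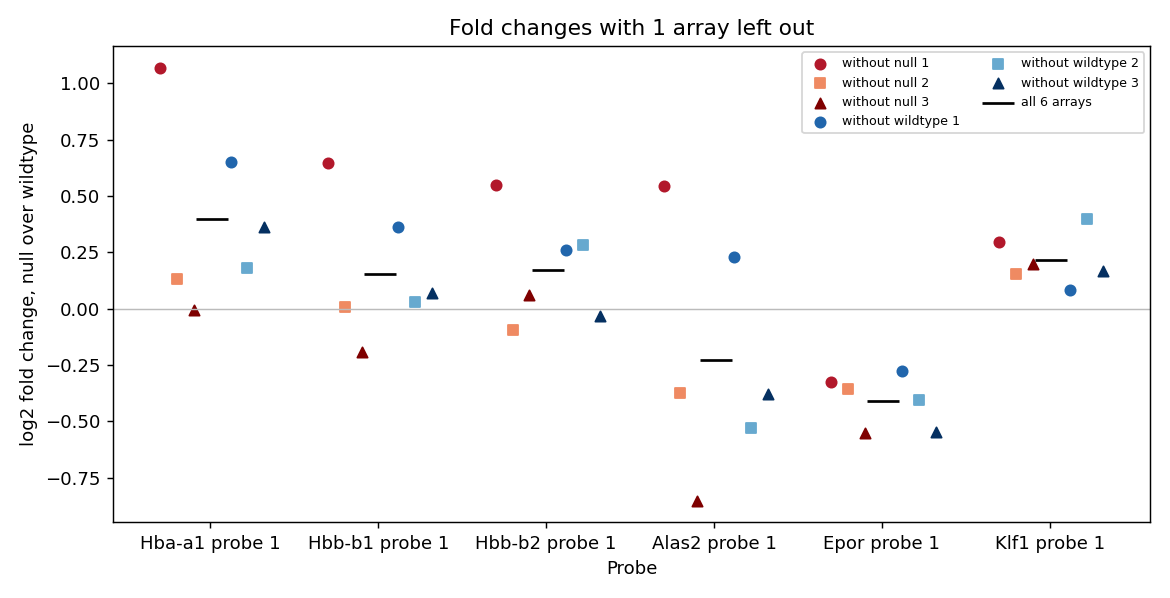
Log2 fold change of the brightest probe of each tested gene with 1 of the 6 arrays left out (coloured points) and with all arrays (black bars). Hba-a1, Hbb-b1, Hbb-b2 and Alas2 lie on either side of 0 depending on the array left out, whereas Epor stays below 0 and Klf1 above 0.

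Other genes of the red cell programme were read from 6 lists with 89 genes, of which 86 were on the array and 60 tested. None passed the threshold over all probes by limma in either direction, beside 0.0734% of all tested genes, and 2 (3.33%) had an unadjusted p under 0.05, beside 3.85%. The median log2 fold change of the 60 genes was -0.03, with 25 higher and 35 lower, beside -0.01 over all tested genes.

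Genes of the red cell membrane gave 11 tested members, 3 higher and 8 lower, with a median log2 fold change of -0.13. Slc4a1, the band 3 anion exchanger, had log2 levels of 6.75, 8.42 and 9.69 in null, against 9.29, 9.41 and 9.45 in wildtype. Null replicates 1 and 2 were below all wildtype arrays and null replicate 3 was above them, so that Slc4a1 was low on null replicate 2 where adult globins were high. Its log2 fold change was -1.09 (SE 0.65), Aqp1, a water channel, had -0.76 (SE 0.52) and Xk had -0.26 (SE 0.25), all with a limma adjusted p of 0.934. The 2 tested Aqp1 probes ran from -0.76 to -0.10, and the probe given was detected on 3 arrays. With 1 array left out, Slc4a1 ran from -1.80 (without null replicate 3) to -0.33 (without null replicate 1), and Aqp1 from -1.24 (without wildtype replicate 1) to -0.39 (without wildtype replicate 2).

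The haem synthesis list without Alas2 had 7 tested genes, 2 higher and 5 lower, with a median of -0.09. Alad, which makes porphobilinogen, had a log2 fold change of -0.22 (SE 0.17), Urod, uroporphyrinogen decarboxylase, -0.14 (SE 0.13), Uros, uroporphyrinogen synthase, -0.13 (SE 0.15), and Fech, ferrochelatase, -0.09 (SE 0.24). These enzymes serve all cells that make haem, and none varied between arrays as Alas2 did: Alad, for instance, lay between 10.63 and 11.14 in null and between 11.01 and 11.18 in wildtype.

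Erythroid transcription factors gave 11 tested genes, 6 higher and 5 lower, with a median of 0.01. Gata1, the leading factor of the red cell programme, was not detected on any array, with intensities of 136.5 to 159.2 in null and 151.5 to 169.1 in wildtype. Myb, a factor of early blood progenitors, had a log2 fold change of 0.77 (SE 0.30), although its 4 tested probes ran from -0.22 to 0.77. E2f2, a cell cycle factor, had 0.21 (SE 0.16), Tal1, a partner of Gata1, had 0.29 (SE 0.24), and Bcl11a, known as a repressor of embryonic and fetal globins, had 0.25 (SE 0.27). Bcl11a stood at 9.78, 10.01 and 10.85 in null, against 9.93, 9.98 and 9.99 in wildtype, and it is also expressed in B cells.

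Of 10 tested genes of iron uptake and handling, 1 was higher and 9 lower, with a median of -0.09. Trf, plasma transferrin, had log2 levels of 5.06, 5.21 and 7.77 in null, against 7.93, 8.75 and 9.07 in wildtype, a log2 fold change of -2.57 (SE 0.71, limma adjusted p = 0.934, and 0.0101 without null replicate 3). Trf is also a hepatocyte marker. Slc40a1, the iron exporter ferroportin, had -0.92 (SE 0.87), which was -1.86 without null replicate 3 and -1.59 without wildtype replicate 1, and -0.44 without null replicate 1, -0.45 without null replicate 2 and -0.47 without wildtype replicate 2. Slc11a2, an iron importer, had -0.22 (SE 0.26), and Fth1, the ferritin heavy chain, -0.11 (SE 0.14).

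Red cell enzymes and chaperones gave 12 tested genes, 5 higher and 7 lower, with a median of -0.02. Ube2l6, an ISG15-conjugating enzyme, had a log2 fold change of 0.63 (SE 0.37), Cat, catalase, 0.37 (SE 0.24), Hebp1, a haem-binding protein, -0.44 (SE 0.39) and Bnip3l, which serves the clearance of mitochondria from maturing red cells, -0.16 (SE 0.18). Without null replicate 3 the values were 0.17 for Ube2l6, 0.13 for Cat, -0.90 for Hebp1 and -0.29 for Bnip3l.

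Among 9 tested genes of erythropoietin receptor signalling, 8 were higher and 1 lower, with a median of 0.39, and the median relative to wildtype was -0.23, 0.09 and 1.70 in null replicates 1, 2 and 3. Cish, Socs3 and Bcl2l1, which Stat5 signalling is known to induce, had log2 fold changes of 0.76 (SE 0.51), 0.88 (SE 0.66) and 0.79 (SE 0.66), and Ptpn6, a phosphatase that acts on the receptor, had 0.36 (SE 0.23). Without null replicate 3 the values were 0.16 for Cish, 0.02 for Socs3, -0.05 for Bcl2l1 and 0.11 for Ptpn6. Many cells other than red cell precursors use these genes.

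**Figure D5:**
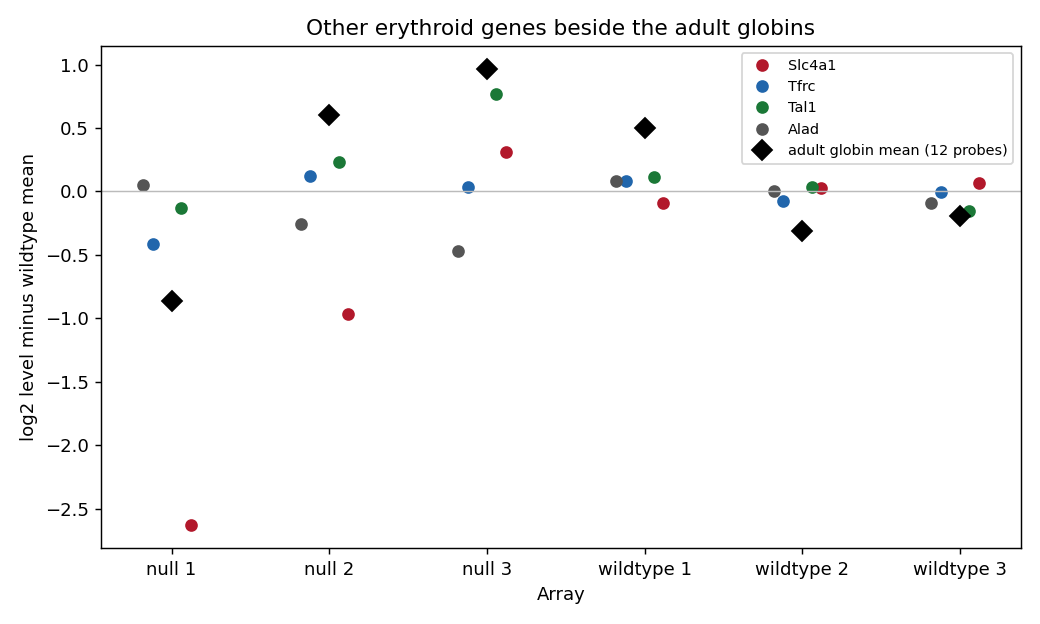
Normalized log2 level minus the wildtype mean on each array for 4 genes of the red cell programme, with the mean of the 12 detected adult globin probes as black diamonds. Slc4a1 is low on null replicates 1 and 2, Tal1 is highest on null replicate 3, and Alad is lowest there.

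Over the 6 arrays, 5 of the 60 genes (8.33%) had an r above 0.8 with the adult globin mean, beside 4.23% of all tested genes. Among 8846 genes with a symbol, the 10 with the highest r were Tfe3 (0.995), Epb41l5 (0.986), Tmub1 (0.981), Tkfc (0.980), Ddost (0.979), Arid5a (0.979), Trbv13-2 (0.978), Mgat1 (0.977), Usp42 (0.973) and C2cd3 (0.968). Of these, Trbv13-2, a T cell receptor gene segment, had a range of log2 levels as wide as the globins, 2.52, and the others ranged over 0.23 to 1.46. With 6 arrays and 8846 genes such values of r are a description only.

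Markers of other cell types moved between arrays as well, and in part in the order of the adult globins. The summed raw intensity of 12 hepatocyte markers was 1721.8, 1859.9 and 2349.6 in null replicates 1, 2 and 3, against 3445.7, 6839 and 5165.1 in wildtype replicates 1, 2 and 3. Of these markers 0, 4 and 7 were detected in null, against 8, 9 and 9 in wildtype, and Alb, Fgb and Apob were detected on no array. Null replicate 2 was thus low in hepatocyte markers and high in adult globins. The 10 myeloid markers on the array summed to 2653, 3540.6 and 12791.6 in null, against 5614.1, 19452.3 and 16094.4 in wildtype, with 7, 7 and 10 detected in null, against 9, 10 and 10 in wildtype. By summed intensity null replicate 1 was the lowest array for both lists, as for the adult globins, but wildtype replicate 2 was the highest. Single myeloid markers were split. Mpo, Prtn3 and Ctsg read 3827.6, 676.5 and 543.9 on null replicate 3, their highest array, against 1263.7, 283.5 and 242.1 on wildtype replicate 2. The other myeloid markers were highest on wildtype replicate 2. The sums of both lists include background, and the negative controls averaged 140.54 on null replicate 1 and 152.05 on null replicate 2. On the normalized log2 scale the median of the tested hepatocyte markers relative to wildtype was -3.52 and -3.48 there, nearly level. For the myeloid markers it was -2.43 and -1.96.

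The 6 megakaryocyte markers summed to 868.3, 949.7 and 1324.9 in null, against 959.5, 1085.9 and 978.5 in wildtype, and 0, 0 and 3 were detected in null, against 2, 2 and 2 in wildtype. The 8 B lineage markers on the array summed to 15984.7, 21360.8 and 51440.5 in null, against 20469, 30005 and 23279.7 in wildtype, and at least 7 were detected on every array. By these sums both lists were lowest on null replicate 1 and highest on null replicate 3, as the adult globins were. The sums include background, and 0 megakaryocyte markers were detected on null replicates 1 and 2, so the order of those 2 arrays is not shown for that list. The 5 T cell markers summed to 865.8, 1278.7 and 1022.8 in null, against 1077.3, 1268.1 and 1128.2 in wildtype, with 2, 2 and 1 detected in null, against 2, 2 and 2 in wildtype.

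Other defining markers of red cells were few beside the bright globins. Of 5 erythroid markers on the array, 1, 2 and 2 were detected in null, against 3, 2 and 3 in wildtype, and Gata1 and Car1 were detected on none. Their summed intensity was 773.8, 1108.5 and 1513.3 in null, against 1301, 1883 and 1591.9 in wildtype. The part of any of these cell types, or of the difference of null replicate 3 from the other arrays, in the globin values was not tested.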

How the data were processed

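RNA of 6 samples was read on Illumina MouseWG-6 v2 arrays. The deposited intensity values are unnormalized mean bead intensities exported by GenomeStudio, per the file headers. BeadStudio, R 2.15.1 and limma 3.12.1 are listed in the submitters' processing notes. Each deposited p-value is a detection p against negative controls, given in the deposited probe table as a fraction, 1 minus that p. The authors' log2 values were made with neqc (normexp background correction from control probes, then quantile normalization), per the deposited description; the largest difference from the values recomputed here was 5e-09. Their median on an array was 4.78, with no centring.

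The intensities of 45281 probes and 974 control probes, 936 of them negative controls, were normalized by neqc (offset 16, log2) under R 4.3.3 and limma 3.58.1. A probe was detected at a detection p under 0.05 and tested when detected on at least 3 arrays (15878 probes, 10904 genes by the brightest tested probe). The null and wildtype groups were compared with lmFit and eBayes of limma, two-sided, with Benjamini-Hochberg adjustment over all tested probes at 0.05. The fit was tested on simulated data. Symbols were matched to RefSeq (GRCm38.p6), 27400 probes by symbol and 8341 by synonym, and 9540 kept the name in the file. All arrays lay on 1 BeadChip. Same-numbered samples did not deviate together (r of 0.0231, 0.0379 and -0.00749), and the main fit treated them as unpaired. Such values of r cannot tell whether same-numbered samples were prepared together. Array number limits the precision. Members and lists were chosen with earlier results of these data known. The text names all members and, in each list, up to 4 genes with the smallest p, and the 10 genes with the highest r with the adult globin mean. Some genes under this rule are not reported here. RefSeq promoter sequences were matched for 6 of the 9 members, and Hbb-bs, Hbb-bt and Hba-a2 were added. Alternatives covered the offset, background correction, normalization, deposited values, detection filter, moderation, array weights, replicate block, probe averaging and the omission of each array.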

Additional observations from a re-analysis of the deposited data

How the results depend on the processing

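The count of globin and erythroid probes past the threshold was 0 as reported and in every alternative run (offset 50, median scaling, no background correction, deposited log2 values, no detection filter, strict detection filter, trend and robust moderation, array weights, replicate block, and the omission of each array). The count over all tested probes, 9, was 56 with median scaling, 52 with array weights, 3 without background correction, 2 with the stricter filter (detected at 0.01 on all arrays), 2 with the replicate block, and 2 to 41 when 1 array was left out, 41 without Smchd1 null replicate 3. The replicate block changed no call of a globin or erythroid gene. The count of genes from the red cell programme lists past the threshold was 1 with median scaling and with array weights, and 0 to 1 when 1 array was left out. With median scaling, with array weights and without null replicate 3, that gene was Trf, plasma transferrin, which is also a hepatocyte marker. Median scaling moved the median of all tested probes to -0.18, and the 11 adult globin probes then had a median of 0.04, above that shift. Directions that turned were E2f2 at -0.030 with median scaling, and with array weights Uros at 0.0085, Fech at 0.18 and Slc11a2 at 0.14. When 1 array was left out, the log2 fold change ran from -0.0080 to 1.07 for Hba-a1, -0.19 to 0.65 for Hbb-b1, -0.10 to 0.55 for Hbb-b2, -0.85 to 0.54 for Alas2, -0.075 to 0.46 for Bcl11a, -0.048 to 1.41 for Bcl2l1, -0.23 to 0.16 for Fech, -0.50 to 0.044 for Slc11a2 and -0.50 to 0.00262 for Xk. The cause was not tested. Signal over background limits Epor, Klf1, Hbb-b2 and Hbb-bh1. It also limits genes of the lists that read near background on some or all arrays. Among them are Tal1 and Cish (detected on 4 arrays each), Fech and Xk (5 each) and Slc40a1 (3).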
